A study of Mus musculus with 157 samples.

Results

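The interferon-inducible GTPases of the guanylate-binding protein (Gbp) and immunity-related GTPase (Irg) families were followed here along polysome gradients of activated B cells. The set held 9 genes of the 19600 in the deposited table, found by their symbols: Gbp2, Gbp3, Gbp6, Gbp7, Igtp, Irgm1, Irgm2, Iigp1 and Ifi47. Ribosome-associated Igtp mRNA rose after etoposide, with a mean of 55.9 CPM (counts of the gene per 1000000 counts of all genes) in LPS and 231 CPM in LPS+ET, whereas Gbp2, Gbp7 and Ifi47 had lower means in LPS+ET that did not pass the test with treatment as the only term. With the library pool as a block Gbp2 and Gbp7 passed as lower, and DESeq2 called all 3. With the ATM inhibitor added, no gene of the set passed the treatment-only test against LPS+ET (Gbp7 passed as higher with the block), and Igtp alone had a lower mean than in LPS+ET, while the other 6 tested genes had higher means.

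Interferon binding to its receptor activates JAK kinases and STAT transcription factors, and the STAT and IRF factors they raise switch on genes that carry GAS and ISRE elements in their promoters. The Gbp and Irg genes are among the most strongly induced targets. Their products are GTPases that gather on the vacuoles of intracellular bacteria and parasites and help to break them open, and the Irgm proteins (Irgm1, Irgm2 and Igtp, also named Irgm3) hold the effector Irg proteins such as Iigp1 and Ifi47 inactive on the membranes of the cell itself. The autophagy conjugation machinery directs both families to their target membranes. B cells express several of these genes, and lipopolysaccharide (LPS), a bacterial ligand of Toll-like receptor 4, can induce them in macrophages through interferon.

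Primary splenic B cells of C57BL/6Babr mice aged 8 to 12 weeks were isolated with a kit and grown in 10 µg/ml LPS in every group, so no group without LPS enters a comparison. The LPS group had 48 h of LPS, and the LPS+ET group then had 20 µM etoposide, a topoisomerase II poison that leaves DNA double-strand breaks, for 4 h. The LPS+ET+KU group had 47 h of LPS, then 10 µM KU55933, an inhibitor of the DNA damage kinase ATM, for 1 h ahead of the same etoposide treatment. The labels do not say whether the LPS cells stayed in culture for the additional 4 h or received vehicle, and there was no group with KU55933 alone. All cells had cycloheximide at 100 µg/ml for 3 min, and extracts were spread over sucrose gradients whose fractions 4 to 7 held monosomes, 8 to 10 light polysomes and 11 to 16 heavy polysomes.

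The 156 libraries of 3′ RNA-seq used here came from 13 fractions of 12 gradients, 4 for each treatment, and held 14724 to 4170688 counts (median 811932). Each treatment had 1 gradient in each of the library pools LUL15, LUL16, LUL17 and LUL18, and a gradient is named by its pool. The methods call these biological replicates, but no label ties a gradient to an animal, so the p-values measure the spread between gradients, which may be partly technical. A tag marks the 3′ end of an mRNA, so CPM is close to a share of mRNA molecules and is not scaled by gene length, and equal RNA from each fraction was used, so a library total does not measure the mRNA of that fraction. Sums over fractions weigh each fraction by its library total. Heavy polysomes held 52.3% to 62.4% of all counts in the LPS gradients, 30.4% to 68.2% in LPS+ET and 37.6% to 55.5% in LPS+ET+KU. Cdkn1a, a p53 target that DNA damage induces, stood at 22.02 to 32.4 CPM in LPS, 501 to 904 in LPS+ET and 402 to 837 in LPS+ET+KU. All 8 B cell markers had counts, and their sum, most of it Ighm, lay between 10280 and 23578 CPM in every gradient. Of the 8, 7 had lower means in LPS+ET than in LPS (median log2 difference -0.76, 1 called, beside 12.7% of all genes), and 6 were higher in LPS+ET+KU than in LPS+ET (median 0.30, 0 called). Of 11 T and NK cell markers 8 were in the table, and their sum (83.9 to 379 CPM) was nearly all Lck, while the other 7 had means of at most 1.13 CPM in each treatment. Of 13 myeloid markers 12 were in the table, with sums of 90.9 to 162 CPM in LPS, 105 to 248 in LPS+ET and 98.0 to 190 in LPS+ET+KU. Of the 10 myeloid markers tested, 9 were higher in LPS+ET than in LPS (median log2 difference 0.72, 0 called) and 2 were higher in LPS+ET+KU than in LPS+ET (median -0.24, 0 called). These marker shifts ran beside the changes described here, and their part in the results below was not tested.

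Most of the set sits in 3 groups on chromosomes 3 and 11 of the mouse genome (GRCm38, GENCODE M21). Gbp7 (chr3:142530342-142550149), Gbp3 (chr3:142560026-142573209) and Gbp2 (chr3:142620602-142638008) follow each other on the plus strand of chromosome 3, 9.88 and 47.4 kb apart. Irgm1 (chr11:48861968-48871683, minus strand) and Ifi47 (chr11:49076587-49096974, plus strand) lie 205 kb apart on chromosome 11, and Igtp (chr11:58199556-58207591) lies 9103 kb farther along it, with the span of Irgm2 (chr11:58199618-58222782) beginning inside it. The counted sites of Igtp and Irgm2 are 15202 bases apart, but that of Igtp (chr11:58207571) lies inside the span of Irgm2. The distance keeps the sites apart and does not show that a tag at the Igtp site came from Igtp alone. The counted site of each of the 7 expressed genes lay at most 115 bases from an annotated end, in the 3′ untranslated exon or, for Gbp3, 9 bases past it. Gbp6 (chr5:105214907-105293695) was counted at an intronic site 73465 bases from the nearest annotated end and Iigp1 at an intronic site 3310 bases from one, so their counts do not measure the ends of the annotated mRNAs. The families hold near-identical copies, and how tags that matched several copies were treated is not given in the sources used here, so levels of single copies carry that uncertainty.

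The promoters are shown because 6 of the 7 expressed genes hold the core of an interferon response element (ISRE). The genes were chosen as interferon-inducible, so this is a description and not independent of the choice. RefSeq promoters (GRCm38.p6) were on hand for 7 of the 9 genes, and the 250 bases before each start were searched on both strands for GAAANNGAAA, the core of an ISRE, and TTCNNNGAA, the core of a GAS element. Counted by gene, the first was found for 6 of the 7, all but Ifi47, and counted by promoter, in 2.98% of all 32851 promoters. The second was found for 3 of the 7 genes (Gbp7, Igtp and Irgm2) and in 7.02% of all promoters. Gbp3 had a further promoter entry (chr3:142560106-142560405) that held neither, so the counts by gene and by promoter are not alike. Each line below gives the 5′ to 3′ window around the match on the strand of the gene, with the ISRE match in capitals (reverse complement TTTCNNTTTC in the 3 Gbp genes):
Gbp2: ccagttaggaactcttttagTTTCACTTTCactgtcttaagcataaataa
Gbp3: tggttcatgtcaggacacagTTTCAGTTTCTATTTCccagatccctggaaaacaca
Gbp7: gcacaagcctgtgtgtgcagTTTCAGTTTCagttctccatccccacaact
Igtp: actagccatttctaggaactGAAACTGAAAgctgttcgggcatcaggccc
Irgm1: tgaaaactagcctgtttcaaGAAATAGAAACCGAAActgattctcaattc
Irgm2: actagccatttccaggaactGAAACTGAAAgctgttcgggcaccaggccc
These windows lie at chr3:142620584-142620633, chr3:142559979-142560034, chr3:142530263-142530312, chr11:58199502-58199551, chr11:48871421-48871470 and chr11:58214893-58214942, in that order, and the matches end 14 bases (Irgm1) to 54 bases (Irgm2) before the start of the RefSeq entry. The RefSeq and GENCODE starts are not always the same. The windows of Irgm1 and Irgm2 and the match of Gbp2 lie inside the GENCODE spans given above. Gbp3 and Irgm1 each held 2 overlapping matches. The promoters of Igtp and Irgm2 were 68.9% identical over 286 aligned columns, with a longest identical run of 55 bases, while the mean level of Igtp was above that of Irgm2 in every treatment, with no overlap. A match describes these letters and does not show that a factor bound there.

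In LPS the 9 genes spanned a wide range of ribosome-associated mRNA, taken as the counts of fractions 4 to 16 summed. Gbp2 led with 144 ± 28.7 CPM (mean ± SD of 4 gradients, as below), followed by Gbp7 at 93.6 ± 25.1, Igtp at 55.9 ± 7.39 and Gbp3 at 36.1 ± 7.59. Irgm1 stood at 13.1 ± 0.13, Ifi47 at 3.92 ± 0.58 and Irgm2 at 1.54 ± 0.55 CPM. The ranges of Gbp2 and Gbp7 overlapped, as did those of Gbp7 and Igtp, and every lower neighbour among these 7 was separated from the next. Gbp6 had 7 counts in all 12 gradients and Iigp1 had 4, so neither was tested. The 0 counts of Iigp1 in LPS+ET allow a level of up to 0.0707 CPM over the 4 gradients (3 counts, counting error only), above the 0.0191 CPM of LPS. In LPS+ET the order changed: Igtp stood first with 231 ± 58.4 CPM, and its range was above that of Gbp2. In LPS+ET+KU Gbp2 (160 ± 25.95) and Igtp (143 ± 61.7) overlapped at the top.

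**Figure D1:**
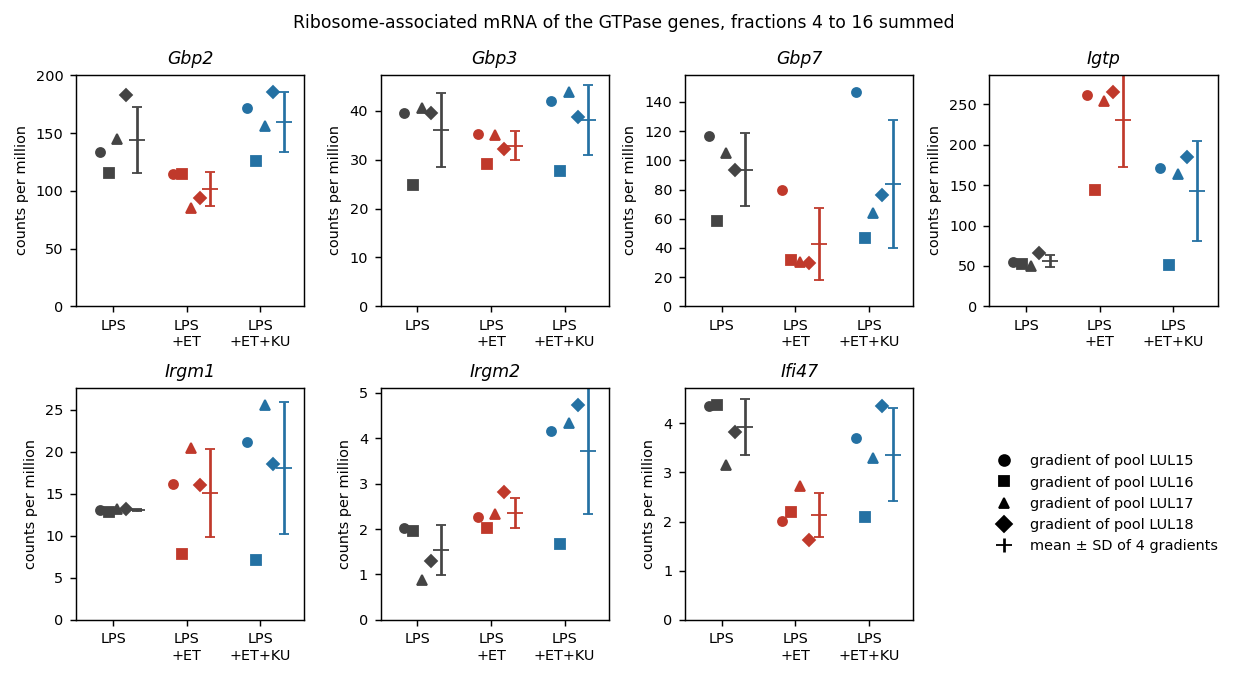
Level in CPM of the 7 expressed GTPase genes over fractions 4 to 16 in each gradient, by treatment, with the mean ± SD of 4 gradients beside the points and the marker shape giving the library pool. Igtp lies at 50.0 to 66.6 CPM in LPS and 144 to 266 in LPS+ET, and the squares of pool LUL16 are the lowest LPS+ET+KU point for all 7 genes.

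The comparison of LPS+ET with LPS gave the level of ribosome-associated mRNA after DNA damage, and 1 of the 7 tested genes, Igtp, rose. Total mRNA did not enter it, so a change in the amount of an mRNA and a move on or off ribosomes cannot be told apart. All 12 gradients entered the edgeR quasi-likelihood fit, with calls at a p under 0.01 after Benjamini-Hochberg adjustment over all 12755 genes tested, of which 12.7% were called here. A share of 1 in 7 is near that background, so the count in this fit does not set the GTPase genes apart from other genes. Other fits, given below, called more of the 7 beside larger shares of all genes (26.7% with the pool as a block, 18.4% with DESeq2). The ranges of the 4 LPS and 4 LPS+ET gradients did not overlap for 4 of the 7 genes (Igtp and Irgm2 higher in LPS+ET, Gbp2 and Ifi47 lower), where 26.4% of all genes did not overlap. In bulk extracts, fewer cells with an mRNA and less mRNA per cell cannot be told apart.

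Igtp, which belongs to the regulatory Irgm class, stood at 55.0, 52.1, 50.0 and 66.6 CPM in the LPS gradients of LUL15, LUL16, LUL17 and LUL18, and at 261, 144, 254 and 266 CPM in the LPS+ET gradients. All 4 LPS+ET gradients were above every LPS gradient, and LUL16 was the lowest of them. The log2 change was 1.93 (SE 0.34, edgeR adjusted p = 0.0012), a 4.13-fold ratio of the means. In the LUL16 gradient of LPS+ET only 30.4% of all counts came from heavy polysomes, against 60.5% to 68.2% in the other 3. The LUL16 gradient was the lowest of LPS+ET for Igtp in each class, with 52.8 CPM in monosomes (others 69.2 to 77.0), 72.3 CPM in light polysomes (others 96.8 to 149) and 326 CPM in heavy polysomes (others 331 to 360).

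The other Irgm genes did not pass the test. Irgm1, the regulator whose loss disturbs autophagy and mitochondria in macrophages, stood at 13.1, 12.9, 13.1 and 13.1 CPM in LPS and at 16.2, 7.81, 20.4 and 16.0 CPM in LPS+ET, so the LPS+ET gradients lay on both sides of a narrow LPS range. Its log2 difference was 0.10 (SE 0.34, edgeR adjusted p = 0.872). Irgm2 stood at 2.03, 1.96, 0.868 and 1.30 CPM in LPS and at 2.27, 2.03, 2.33 and 2.82 CPM in LPS+ET, from 8 to 38 counts per gradient. The ranges did not overlap, but by a small margin, and the log2 difference of 0.49 (SE 0.37) had an edgeR adjusted p of 0.396.

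Among the guanylate-binding proteins, Gbp2 stood at 133, 115, 145 and 183 CPM in LPS and at 114, 114, 85.2 and 93.8 CPM in LPS+ET. Every LPS+ET gradient was below every LPS gradient, by less than 1 CPM at the nearest points. The log2 difference was -0.62 (SE 0.19), with an edgeR adjusted p of 0.0336, which missed the threshold. Gbp7 stood at 117, 58.7, 105 and 93.5 CPM in LPS and at 79.7, 32.01, 30.3 and 29.6 CPM in LPS+ET. Each pool had less Gbp7 in LPS+ET than in LPS, although the LUL15 gradient of LPS+ET lay above the LUL16 gradient of LPS, so the ranges overlapped. The log2 difference was -1.26 (SE 0.36, edgeR adjusted p = 0.0213). With the library pool as a block, Gbp2 (-0.59, edgeR adjusted p = 0.00916) and Gbp7 (-1.34, edgeR adjusted p = 8.22e-05) passed, and 3 of the 7 genes were called, where that fit called 26.7% of all genes. Gbp3 showed the smallest difference of the 3, since its LPS gradients lay at 24.7 to 40.6 CPM and its LPS+ET gradients at 29.04 to 35.3 CPM, with a log2 difference of -0.24 (SE 0.19, edgeR adjusted p = 0.41).

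Ifi47, an effector Irg also named Irgd, stood at 4.35, 4.37, 3.14 and 3.82 CPM in LPS and at 2.01, 2.19, 2.72 and 1.62 CPM in LPS+ET, from 14 to 85 counts per gradient. The groups did not overlap. The log2 difference of -0.996 (SE 0.28) had an edgeR adjusted p of 0.0218 and, with the pool as a block, 0.0106, so it missed the threshold in both fits. DESeq2 called all 3 of these lower genes, Gbp2 (adjusted p = 0.00938), Gbp7 (0.00395) and Ifi47 (0.00993), beside Igtp, where it called 18.4% of all genes.

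Leaving out single gradients changed 1 of these calls: without the LUL15 gradient of LPS+ET, Gbp7 passed as well (-1.67, edgeR adjusted p = 0.00389). The call of Igtp held without any of the 8 gradients, with log2 changes of 1.82 to 2.08.

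**Figure D2:**
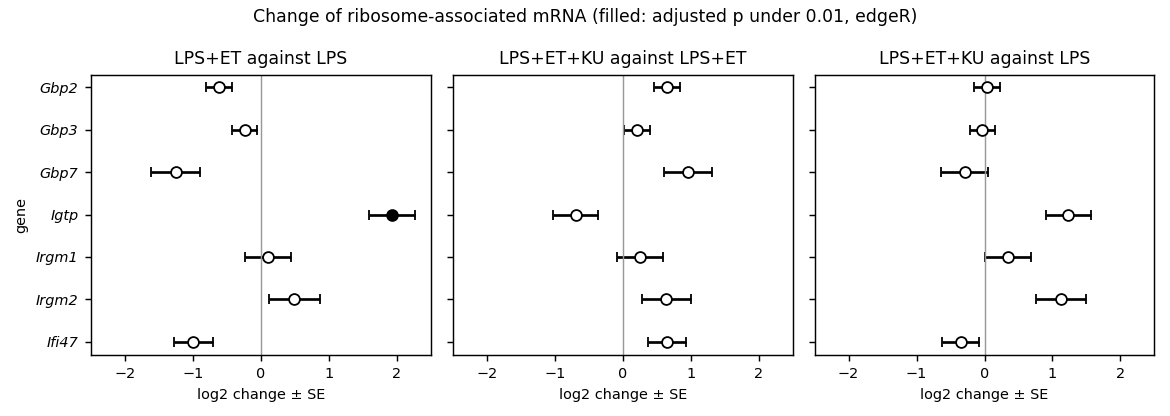
Log2 change ± SE of ribosome-associated mRNA (fractions 4 to 16) of the 7 expressed GTPase genes in the 3 comparisons, from edgeR on 4 against 4 gradients, with filled points at an adjusted p under 0.01. Igtp in LPS+ET against LPS, at 1.93, is the only filled point, and it alone lies below 0 in LPS+ET+KU against LPS+ET.

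ATM inhibition ahead of etoposide was compared with etoposide alone to ask which changes depend on the kinase. None of the 7 genes was called by edgeR in LPS+ET+KU against LPS+ET, where 0.455% of all genes were called, and DESeq2 called none (3.24% of all genes). At an unadjusted p under 0.05, edgeR gave 3: Gbp2, Gbp7 and Ifi47, all higher in LPS+ET+KU. The share of all genes under that unadjusted p was not counted, here or below, so such counts are a description. The gradients did not overlap for 1 of the 7 genes, Gbp2, against 8.26% of all genes.

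Gbp2 stood at 172, 125, 156 and 186 CPM in the LPS+ET+KU gradients of LUL15, LUL16, LUL17 and LUL18, above all 4 LPS+ET gradients and, pool by pool, above LPS in 4 of 4. The log2 difference against LPS+ET was 0.65 (SE 0.19, edgeR adjusted p = 0.0936). Gbp7 stood at 147, 47.0, 64.0 and 76.3 CPM in LPS+ET+KU and was higher than LPS+ET in 4 of 4 pools, while the ranges overlapped, with LUL15 the highest gradient of both groups. Its log2 difference was 0.96 (SE 0.35, edgeR adjusted p = 0.187), and with the pool as a block it passed (0.96, edgeR adjusted p = 0.00469), where 6.36% of all genes did. Gbp3 stood at 42.1, 27.7, 43.9 and 38.8 CPM in LPS+ET+KU, with a log2 difference of 0.21 (SE 0.19, edgeR adjusted p = 0.647).

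Igtp was the gene that stood lower with the inhibitor: 172, 51.1, 163 and 185 CPM in LPS+ET+KU, below LPS+ET in 4 of 4 pools. The ranges overlapped, since the lowest LPS+ET gradient (144 CPM, LUL16) lay below 3 of the LPS+ET+KU gradients. The log2 difference of -0.69 (SE 0.33) had an edgeR adjusted p of 0.332. Irgm1 stood at 21.2, 7.09, 25.6 and 18.5 CPM, Irgm2 at 4.15, 1.68, 4.34 and 4.73 CPM and Ifi47 at 3.70, 2.10, 3.28 and 4.36 CPM in LPS+ET+KU. For these 3 genes LUL16 was again the lowest and fell inside or under the LPS+ET range, and the log2 differences from LPS+ET were 0.25, 0.64 and 0.65, with edgeR adjusted p-values of 0.781, 0.422 and 0.282.

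Against LPS, which shares its LPS gradients with the first comparison, no gene of the 7 was called in LPS+ET+KU (10.7% of all genes were), and the ranges of all 7 overlapped, where 26.3% of all genes did not overlap. At an unadjusted p under 0.05, edgeR gave 2 genes, Igtp (log2 difference 1.24, SE 0.34, adjusted p = 0.0186) and Irgm2 (1.13, SE 0.37, adjusted p = 0.0404), while DESeq2 called 1, Igtp (1.22, adjusted p = 0.00304), and 18.2% of all genes. With the pool as a block, Igtp passed in edgeR too (1.10, adjusted p = 0.00229), where 28.1% of all genes did. The LUL16 gradient of LPS+ET+KU decided this comparison: without it, both Igtp (1.51, edgeR adjusted p = 0.000325) and Irgm2 (1.37, edgeR adjusted p = 0.00471) passed. Gbp2, Gbp3, Gbp7, Irgm1 and Ifi47 had log2 differences from LPS of 0.04, -0.03, -0.29, 0.35 and -0.35, with edgeR adjusted p-values of 0.485 or above for all but Ifi47 (0.382). These sums give heavy polysomes a different weight in each gradient. With all fractions weighed alike, the differences of Gbp3 and Ifi47 turned to above 0.

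The change of Igtp was present in every polysome class. Among monosomes its level was 18.1 to 26.002 CPM in LPS, 52.8 to 77.0 in LPS+ET and 16.2 to 71.3 in LPS+ET+KU. In light polysomes the values were 27.2 to 36.1, 72.3 to 149 and 32.4 to 126 CPM, and in heavy polysomes they were 70.4 to 90.6, 326 to 360 and 94.4 to 282 CPM. The LPS+ET gradients were above all LPS gradients in each class, and within the heavy polysomes every LPS+ET+KU gradient lay between the LPS and the LPS+ET range. The low LPS+ET+KU gradient was LUL16 in all 3 classes.

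For LPS+ET against LPS, edgeR on the class sums called 1 gene each, Igtp: 1 of 5 tested in monosomes (log2 change 1.75, adjusted p = 0.00663, where 9.52% of all genes were called), 1 of 5 in light polysomes (1.59, adjusted p = 0.00466, where 10.6% were) and 1 of 7 in heavy polysomes (2.08, SE 0.29, adjusted p = 0.000214, where 9.69% were). The monosome call was lost without any 1 of the gradients except LUL16 of LPS+ET, with log2 changes of 1.62 to 1.90 and adjusted p-values of 0.0132 to 0.0265. The light polysome call was lost without any 1 of the LPS gradients or without LUL15 or LUL18 of LPS+ET (1.39 to 1.67, adjusted p of 0.0117 to 0.0179), while the heavy polysome call held in every such fit. Without LUL15 of LPS+ET, Gbp7 was called as lower in heavy polysomes (-1.62, edgeR adjusted p = 0.00924). With the pool as a block, Gbp7 was called as lower in all 3 classes as well (-0.68, -1.12 and -1.33, edgeR adjusted p = 0.00877, 7.08e-05 and 0.00113), where 24.6%, 25% and 20.6% of all genes were called.

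For LPS+ET+KU against LPS+ET, edgeR called no gene of the set in monosomes (0 of 5, with 0.213% of all genes called), light polysomes (0 of 5, 0.292%) or heavy polysomes (0 of 7, 0.572%). At an unadjusted p under 0.05 there were 3, 2 and 3 genes in these classes. DESeq2 called 1, 0 and 0 (Gbp2 in monosomes, log2 difference 0.77, adjusted p = 0.00661), where it called 1.22%, 2.16% and 2.49% of all genes. With the pool as a block, Gbp2 (0.76, edgeR adjusted p = 0.00188) and Gbp7 (0.79, edgeR adjusted p = 0.00684) passed in monosomes and Gbp7 in light polysomes (1.06, edgeR adjusted p = 0.000811), where 5.62% and 5.35% of all genes did in these classes.

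For LPS+ET+KU against LPS, 0 of 5 genes were called by edgeR in monosomes (5.96% of all genes) and 0 of 5 in light polysomes (7.13%), with 2 and 1 at an unadjusted p under 0.05, and DESeq2 called 0 and 1 (Igtp in light polysomes, log2 change 1.23, adjusted p = 0.00558). In heavy polysomes 1 of 7 was called, Igtp (1.35, SE 0.29, edgeR adjusted p = 0.00532), where 7.95% of all genes were. That call was lost without any 1 of the 8 gradients except LUL16 of LPS+ET+KU, with adjusted p-values of 0.0124 to 0.0244. With the pool as a block, Igtp passed in monosomes (1.14, edgeR adjusted p = 0.000828) and light polysomes (1.05, edgeR adjusted p = 0.00471), and Gbp2 in monosomes (0.52, edgeR adjusted p = 0.00757), where 23.2% and 24.1% of all genes passed in these classes. Without LUL16 of LPS+ET+KU, Igtp also passed in monosomes (1.59, edgeR adjusted p = 0.000346) and light polysomes (1.51, edgeR adjusted p = 0.000658).

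Fraction by fraction, Igtp, Gbp7 and Gbp2 all peaked among the heavy polysomes. In fraction 14 the level of Igtp was 115 ± 26.7 CPM for LPS, 533 ± 165 for LPS+ET and 375 ± 195 for LPS+ET+KU. In the same fraction Gbp7 stood at 302 ± 106, 120 ± 67.1 and 247 ± 167 CPM, the opposite order for LPS and LPS+ET. Gbp2 stood at 361 ± 58.3, 271 ± 93.0 and 521 ± 203 CPM there. The SDs of the etoposide groups were wide enough in the heavy fractions for most neighbouring values of LPS+ET and LPS+ET+KU to overlap.

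**Figure D3:**
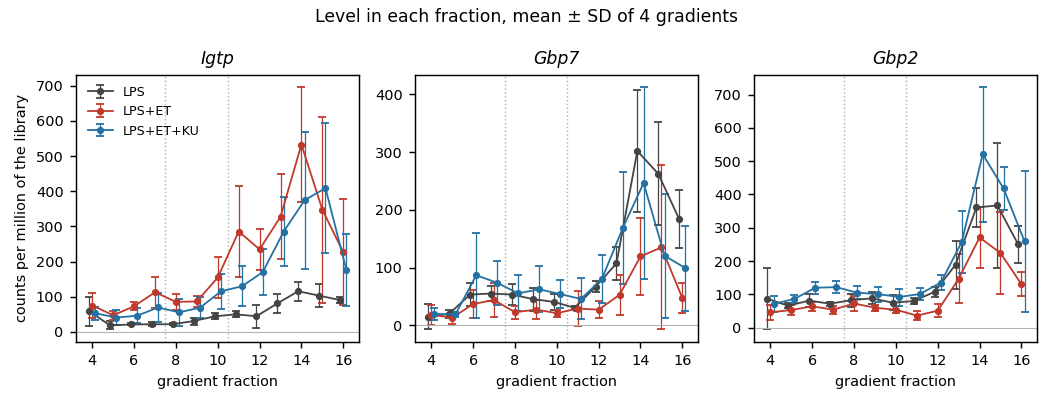
Level in CPM of Igtp, Gbp7 and Gbp2 in each gradient fraction, as mean ± SD of 4 gradients per treatment, with dotted lines between monosomes, light polysomes and heavy polysomes. In fraction 14 Igtp stands at 115 CPM in LPS and 533 in LPS+ET, while Gbp7 stands at 302 and 120.

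A model of single-fraction libraries tested whether treatment changed a gene in any fraction (edgeR, fraction, treatment and their interaction against fraction alone). It takes the fractions of a gradient as independent, and it does not separate a change of level from a change of position. For LPS+ET against LPS, 3 of the 5 tested genes were called, Gbp2 (edgeR adjusted p = 0.000828), Gbp7 (6.66e-07) and Igtp (1.51e-19), where 31% of all genes were. With LPS+ET+KU set against LPS+ET, the model called 2 of 6, Gbp2 (edgeR adjusted p = 1.43e-05) and Gbp7 (0.00543), where 8.01% of all genes were. For LPS+ET+KU against LPS, 1 of 6 was called, Igtp (edgeR adjusted p = 6.18e-08), where 32.7% of all genes were. Without the LUL18 gradient of LPS, Gbp2 was lost from the first comparison (edgeR adjusted p = 0.0292). The Gbp7 call of LPS+ET+KU against LPS+ET was lost without LUL16, LUL17 or LUL18 of LPS+ET or without LUL15 or LUL18 of LPS+ET+KU (edgeR adjusted p of 0.0255 to 0.384). Without LUL16 of LPS+ET+KU, Irgm1 was added in LPS+ET+KU against LPS (edgeR adjusted p = 0.00464). Where the interaction was tested alone with a term per gradient, which takes the level out, 0 genes of the set were called by edgeR in each comparison, with adjusted p-values of 0.457 or above for those just named and 0, 0 and 1 genes at an unadjusted p under 0.05 (Ifi47 in LPS+ET+KU against LPS, adjusted p = 0.0648). The share of all genes that this interaction fit called is not given here, so the 0 does not show that positions stayed the same. With the pool as a block, Igtp was added in LPS+ET+KU against LPS+ET (edgeR adjusted p = 0.0053), where 18.3% of all genes were called.

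The polysome distribution was then described by scaling each fraction library to the same total, so that all fractions weighed the same, and taking each gene's percent in each fraction. Gbp2, Gbp3, Gbp7 and Igtp were heavy polysome mRNAs in every treatment, with 63.5% to 78.0% of the profile in fractions 11 to 16 on average, against a median of 53.9% to 55.2% over the 8000 genes with a mean of at least 100 counts per gradient. Gbp7 was the heaviest in LPS, at the 94.0th percentile of those genes, and Igtp was the heaviest in LPS+ET and LPS+ET+KU, at the 93.7th and 95.7th. These 4 genes peaked in fraction 14, except that Gbp3 and Igtp peaked in fraction 15 in LPS+ET+KU. Irgm1 differed in the scaled profiles, with 53.7% to 59.9% in heavy polysomes and its highest mean in fraction 4 in LPS (15.6% ± 13.3) and LPS+ET (18.3% ± 14.9), where it rested on 10 counts from 4 libraries in each. With counts as deposited, Irgm1 had 69.8%, 77.0% and 60.1% in heavy polysomes in LPS, LPS+ET and LPS+ET+KU. Gbp3 had 74.2%, 71.2% and 58.4%, and Gbp2 had 76.1%, 72.0% and 65.7%. In LPS+ET Irgm1 therefore lay below Gbp2 and Gbp3 only when the fractions were scaled, while in LPS it lay below both either way.

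**Figure D4:**
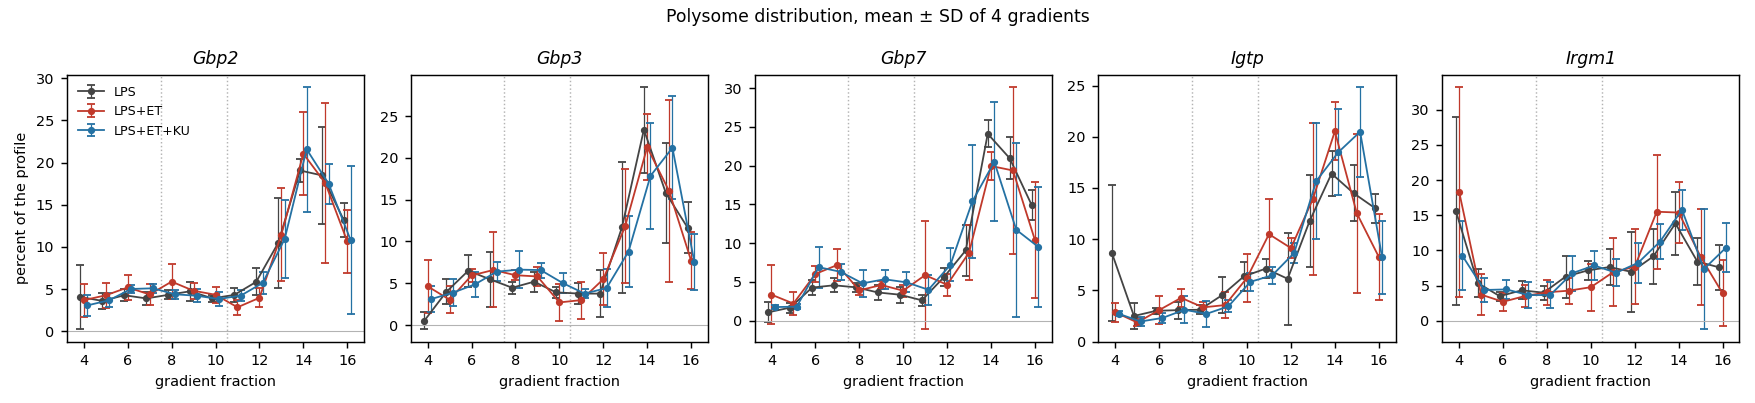
Percent of each gene's scaled profile in each gradient fraction for the 5 GTPase genes with at least 100 counts per gradient on average, as mean ± SD of 4 gradients per treatment, with dotted lines between monosomes, light and heavy polysomes. Gbp2, Gbp3, Gbp7 and Igtp peak in fraction 14 or 15 in all treatments, and Irgm1 has a high and variable mean in fraction 4.

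The heavy polysome share was tested with limma on log2 odds, and 0 of 5 genes were called in each comparison, where 0.325% (LPS+ET against LPS), 0% (LPS+ET+KU against LPS+ET) and 0.775% (LPS+ET+KU against LPS) of all genes were. At an unadjusted p under 0.05 limma gave 1, 0 and 2 genes. Gbp7 had 75.9%, 78.7%, 79.2% and 75.2% of its profile in heavy polysomes in the LPS gradients and 69.7%, 71.2%, 72.0% and 62.9% in LPS+ET. All 4 LPS gradients were above all 4 of LPS+ET, and the log2 odds differed by -0.61 (SE 0.21, limma adjusted p = 0.125). With counts as deposited the ranges overlapped (75.2% to 80.8% and 59.5% to 80.3%) and the difference was -0.36 (limma adjusted p = 0.9998). In LPS+ET+KU the share of Gbp7 lay at 62.7% to 75.2%, and its log2 odds differed from LPS by -0.65 (SE 0.21, limma adjusted p = 0.0908). The mean fraction of Gbp7, its profile averaged over fraction numbers, was 12.7 ± 0.21 in LPS and 11.9 ± 0.51 in LPS+ET, with an exact two-sided permutation p of 0.0286, the smallest that 70 splits allow, and 0.3 after adjustment over the 21 gene and treatment pairs. Igtp went the other way: its heavy polysome percentages were 68.9 ± 6.56 for LPS, 74.8 ± 4.15 for LPS+ET and 78.0 ± 2.31 for LPS+ET+KU, and for LPS+ET+KU against LPS the log2 odds differed by 0.67 (SE 0.23, limma adjusted p = 0.111). Its mean fraction was 12.4 ± 0.12 in LPS+ET+KU and 11.7 ± 0.55 in LPS (exact permutation p = 0.0286, adjusted 0.3). When counts were taken as deposited, the Igtp share difference changed sign (-0.23, limma adjusted p = 0.92), as did that of its mean fraction (-0.61, against 0.69 when scaled), so the direction rests on the scaling of the fractions. Irgm2 and Ifi47 were too low for the share test, with means of 36.6% to 52.9% and 59.6% to 73.2% in heavy polysomes.

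The pathway around these genes was described in the order of its parts, by genes called with edgeR at the same threshold for fractions 4 to 16. Of the interferon genes only Ifng was in the table, at 0 to 0.256 CPM, and none was tested. Of 12 tested genes for receptors, JAK kinases and STAT and IRF factors, 0 rose and 2 fell in LPS+ET against LPS: Irf8, a factor of B cell and myeloid identity (535 to 147 CPM, log2 change -1.99), and Irf2, a repressor of interferon targets (78.1 to 42.6 CPM, -0.98). A count of 2 in 12 is near the share of all genes called. In LPS+ET+KU against LPS+ET 0 were called, and in LPS+ET+KU against LPS 3 fell, Irf8 (-1.68), Irf2 (-1.17) and the kinase Jak1 (-1.17). Irf1, which acts on Gbp promoters, had means of 57.9, 79.5 and 86.9 CPM in LPS, LPS+ET and LPS+ET+KU and passed in no comparison.

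Of 5 tested feedback inhibitors, Socs1, which blocks JAK kinases, rose in LPS+ET (6.82 to 22.6 CPM, log2 change 1.62) and was called as higher than LPS in LPS+ET+KU too (18.7 CPM, 1.35). The phosphatase gene Ptpn6 fell (102 to 40.6 CPM, -1.45) and had a mean of 25.4 CPM in LPS+ET+KU (-2.13 against LPS), where Pias1 was also called as lower (-0.997). When LPS+ET+KU and LPS+ET were compared, none of the 5 was called.

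Of 9 tested genes of the same GTPase families outside the set, 0 were called in LPS+ET against LPS and 0 in LPS+ET+KU against LPS. In LPS+ET+KU against LPS+ET, where 0.455% of all genes were called, 1 rose, Gbp5, which promotes inflammasome assembly (8.65 to 27.1 CPM, log2 change 1.65, edgeR adjusted p = 0.00893). Their median log2 changes were -0.46, 0.09 and 0.19 in these 3 comparisons, where all genes tested had medians of 0.03, 0.09 and 0.04.

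Of 27 other interferon-induced genes tested, 0 rose and 3 fell in LPS+ET against LPS: Ifit3 (26.4 to 5.97 CPM, log2 change -2.29), Ciita, the activator of MHC class II genes (72.4 to 25.99 CPM, -1.60), and Ifit2 (27.8 to 11.1 CPM, -1.44). That count of 3 in 27 is near the 12.7% of all genes called in this comparison. In LPS+ET+KU against LPS+ET 4 rose and 0 fell, with 24 of 27 above 0: the chemokine gene Cxcl10 (3.18 to 56.6 CPM, 4.17), Ifit1 (73.8 to 372 CPM, 2.33), Rsad2, which encodes the antiviral protein viperin (16.2 to 70.7 CPM, 2.13), and Ifit2 (11.1 to 47.7 CPM, 2.12). Of all genes 0.455% were called there, and the share above 0 was not counted. Against LPS, Cxcl10, Ifit1, Rsad2 and Irf7 were called as higher in LPS+ET+KU and Ciita as lower, where 10.7% of all genes were called. The list medians were -0.47, 0.63 and 0.12 in the 3 comparisons.

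**Figure D5:**
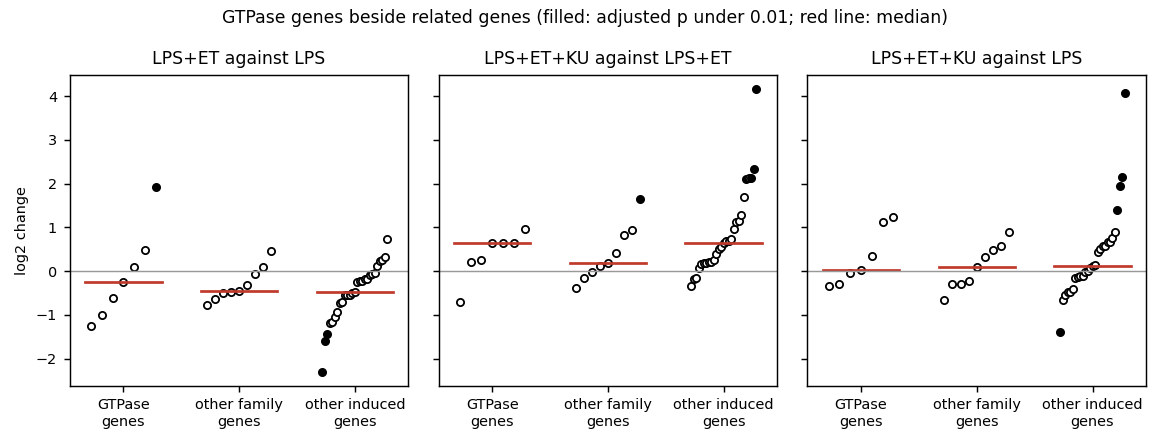
Log2 change of ribosome-associated mRNA (fractions 4 to 16, edgeR) for the 7 GTPase genes, 9 further genes of the families and 27 other interferon-induced genes in the 3 comparisons, with filled points at an adjusted p under 0.01 and a red line at the median. In LPS+ET+KU against LPS+ET the filled points are Gbp5 and 4 of the 27 interferon-induced genes, all higher.

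Of 10 autophagy conjugation genes tested, 1 was called as higher in LPS+ET against LPS, Atg12 (47.3 to 80.2 CPM, log2 change 0.65), 0 in LPS+ET+KU against LPS+ET, and 1 in LPS+ET+KU against LPS, again Atg12 (1.01). A count of 1 in 10 is near the shares of all genes called in the comparisons with LPS (12.7% and 10.7%). Of the markers of cell types, the B cell gene Cd22 was called as lower in LPS+ET against LPS (411 to 102 CPM, -2.12) and in LPS+ET+KU against LPS (-1.82), and the myeloid gene Cd14 as higher in LPS+ET+KU against LPS (0.546 to 8.65 CPM, 3.83). No T or NK cell marker was called (Lck, Cd3d and Thy1 were tested).

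The genes whose pattern across the 12 gradients was most like the mean of the 7 GTPase genes (each scaled to its own mean and SD of log2 CPM) were Rtp4 (Pearson r = 0.92), Oas2 (0.92), Rbm7 (0.92), Pbx3 (0.91) and Wdr13 (0.90), among 12748 genes compared. The 12 points share libraries, pools and treatments, and the values are a description. Igtp taken alone, a choice made after its values were seen, was most like Glipr1 (r = 0.99), whose means were 251, 2064 and 937 CPM in LPS, LPS+ET and LPS+ET+KU.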

How the data were processed

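The deposited table held counts of 3′ end tags per gene and fraction, made by the authors: equal amounts of RNA per fraction were reverse transcribed, PCR duplicates were removed by barcode, A tracts were trimmed and the tags were mapped to GRCm38 and summed by Ensembl gene. The submitters' processing notes name TopHat2 2.0.12, HTSeq and DESeq2 1.6.3, the first 2 of which the methods tie to other mRNA-seq data, and the aligner of the 3′ tags is not given in the sources used here. No value was normalized before deposit, and a fraction 17 library of 777 counts was not used. Of 157 columns, 79 matched 1 labelled sample and 78 (pools LUL16 and LUL18) a treatment and fraction only, so gradients are named by pool.

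Counts were summed over fractions 4 to 16, or over each polysome class, and tested with edgeR 4.0.16 (TMM, default expression filter, quasi-likelihood F-test, treatment as the only term, all 12 gradients). Single fractions were tested on the libraries of both treatments compared. Heavy polysome shares were tested with limma 3.58.1 on log2 odds of scaled counts (0.5 CPM added, mean of 100 or more counts per gradient). Calls were made at an adjusted p under 0.01, two-sided, and mean fractions were compared with exact permutation tests (70 splits). The alternative count test was DESeq2 1.42.0 in R 4.3.3. Sums and shares were made in Python 3.11.15 with pandas 2.3.3, and permutations with scipy 1.17.1 on numpy 2.4.6. The fits were tested on simulated data. Floors cover counting error only.

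The tests above leave the pool out, and it entered as a block only as an alternative. The check for pairing by pool found that deviations of log2 CPM from the treatment means correlated across genes at 0.305 to 0.799 for all 12 same-pool pairs (median 0.585) and at a median of -0.190 for different pools. Deviations from a treatment mean sum to 0 over its pools, so the negative median for different pools is largely set by the centring. The pairing rests on the column names, which give pools and no animals. The GTPase genes and the gene lists were chosen with earlier results of these data known. Genes were named by rule: all 9 of the set, and of each list those called, or the 3 most abundant where none was. Irf1 and Ighm, named without a call, were chosen after their values were seen. Alternatives were the pool as a block, DESeq2, other normalization, filters, weights, pseudocounts and left-out gradients.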

Additional observations from a re-analysis of the deposited data

Results flagged for a closer look

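In 7 of 63 groups of 4 gradients (7 genes, 3 treatments, and the level, heavy polysome share and mean fraction of each), 1 gradient stood far from the other 3 by Dixon's test. By chance about 1 group in 20 does so, or 3.15 of 63. No explanation was tested for any of them.

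Igtp stood at 144 CPM in the LUL16 gradient of LPS+ET, against 254 to 266 in the other 3, and at 51.1 CPM in the LUL16 gradient of LPS+ET+KU, against 163 to 185. In LPS the LUL16 gradient was low for Gbp3 (24.7 CPM, others 39.5 to 40.6) and for Irgm1 (12.9 CPM, others 13.1), the latter a gap of under 1 CPM. Gbp7 was high in the LUL15 gradient of LPS+ET, at 79.7 CPM against 29.6 to 32.01. It was also the highest there among monosomes (47.1 CPM, others 18.6 to 23.7), light polysomes (40.7 CPM, others 16.9 to 20.8) and heavy polysomes (103.7 CPM, others 33.9 to 62.6).

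For the distribution, the heavy polysome share of Igtp in the LUL17 gradient of LPS was 59.1%, against 71.7% to 73.0%. The mean fraction of Gbp2 was 10.9 in the LUL16 gradient of LPS+ET, against 12.1 to 12.3. The LUL16 gradients of LPS+ET and LPS+ET+KU also had the lowest heavy polysome share of all counts in their groups, 30.4% and 37.6%.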

How the results depend on the processing

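With the pool as a block (replicate block), the GTPase genes called in LPS+ET against LPS, LPS+ET+KU against LPS+ET and LPS+ET+KU against LPS were 3, 1 and 1 over fractions 4 to 16, 2, 2 and 2 in monosomes, 2, 1 and 1 in light polysomes and 2, 0 and 1 in heavy polysomes. Of all genes the block called 3403, 811 and 3589 over fractions 4 to 16 (in place of 1618, 58 and 1361), or 26.7%, 6.36% and 28.1%, with 24.6%, 5.62% and 23.2% in monosomes, 25%, 5.35% and 24.1% in light and 20.6%, 3.27% and 21.4% in heavy polysomes. The block changed no other call than these and the Igtp profile. DESeq2 called 4 (Gbp2 -0.62, Gbp7 -1.265 and Ifi47 -1.007 lower, Igtp higher), 0 and 1 over fractions 4 to 16 (2344, 413 and 2319 of all genes, or 18.4%, 3.24% and 18.2%). It added 1 (Gbp2) in monosomes of LPS+ET+KU against LPS+ET (1.22% of all genes) and 1 in light polysomes of LPS+ET+KU against LPS (12%). Equal weights without libraries under 100000 counts called 1 (Igtp) in LPS+ET+KU against LPS, and the interaction with a term per gradient called 0, 0 and 0. The shares of all genes called by these fits are not given here.

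Leaving out 1 gradient at a time gave 1 to 2, 0 and 0 to 2 calls over fractions 4 to 16, 0 to 1, 0 and 0 to 1 in monosomes and in light polysomes, 1 to 2, 0 and 0 to 1 in heavy polysomes, and 2 to 3, 1 to 2 and 1 to 2 for the profile. Leaving out pool LUL16, an alternative chosen after seeing the data, gave 2 (Gbp2 -0.777, Igtp), 0 and 2 (Igtp 1.497, Irgm2 1.53) over fractions 4 to 16 (16.3%, 2.14% and 14% of all genes), 1 in monosomes and 1 in light polysomes of LPS+ET+KU against LPS (6.42% and 7.42%), and 2 for the profile there (Igtp, Irgm1, 30.6%).

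Directions turned for 6 results, none of them called: Irgm1 in LPS+ET against LPS (-0.0202 with the block, -0.153 with equal weights, -0.0929 to 0.293 with a gradient left out), and in LPS+ET+KU against LPS Gbp2 (-0.078 to 0.183 with a gradient left out), Gbp3 (0.337 with equal weights, 0.177 without shallow libraries, -0.167 to 0.0945 with a gradient left out), Ifi47 (0.0869 with equal weights, 0.0102 without shallow libraries), and the heavy polysome share (-0.234) and mean fraction (-0.612) of Igtp with counts as deposited. The cause was not tested. Another normalization, no filter, the 8 compared gradients alone and another pseudocount kept the direction and call of every GTPase gene they were tried on. The exact sign flips over pools cannot go below p = 0.125. Irgm2 and Ifi47 rest on 8 to 85 counts per gradient.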
